A study of Mus with 4 samples.

Results

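The 10 genes described here are markers and drivers of cell division: *Mki67*, *Top2a*, *Cdk1*, *Ccnb1*, *Ccna2*, *Pcna*, *Mcm2*, *Aurkb*, *Plk1* and *Bub1*. They were set by Ensembl gene ID as known cell cycle genes, by a rule that uses no measured value but was written with earlier results of these data known, and all 10 were found among the 55487 IDs of the table. The study asked how raised miR-187 changes the heart transcriptome at birth and counted fewer endothelial cells in mitosis in its knock-in animals, so the question is whether RNA of the division machinery differs between the libraries of the 2 groups. Hearts of newborn mice at postnatal day 0 (P0) were sequenced in 4 RNA-seq libraries, 2 labelled wild type (WT) and 2 labelled miR-187. The microRNA-187 mice of the study carry the miRNA at the *Rosa26* locus on a C57BL/6J background under the *Tek* (*Tie2*) promoter. The study used this promoter to limit the miRNA to endothelial cells. The labels do not give the dose of the allele, whereas the methods state that RNA-seq at P0 used knock-in homozygotes (KI/KI) with WT controls. The labels give heart as the tissue and the methods name cardiac endothelial cells, and markers of heart or endothelial cells were not looked up because the table gives IDs without gene names. Nothing in the labels says that the libraries come from separate animals, so p-values measure only the spread between these libraries. The terms WT hearts and miR-187 hearts below follow the labels and stand for these libraries.

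A dividing cell copies its DNA in S phase and separates the copies in mitosis. Genes for replication, such as *Mcm2* and *Pcna*, are induced as cells enter S phase, mostly through E2F factors. Genes of mitosis, such as *Ccnb1* and *Plk1*, peak later, in G2 and M, through MYBL2 with FOXM1. Heart muscle cells of newborn mice still divide and stop within days after birth, and endothelial cells, fibroblasts and blood cells divide beside them. Each library sums over all cells it was made from, whether whole heart as labelled or endothelial cells as in the methods, and fewer dividing cells cannot be told apart from less of these transcripts per cell.

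Values are the authors' FPKM (fragments per kilobase of transcript, relative to all mapped fragments of the library), a level per length that allows genes to be compared with each other. Sums of FPKM ranged from 750826 to 807359 per library, and read depth is unknown. MiR-187 replicate 2 stood apart. It had the fewest IDs above 0, at 44825 against 50294 to 53180 in the other libraries, and it was the lowest of the 4 libraries for 39.1% of the 14325 genes tested, which averaged 1 FPKM or more. The main counts and differences are therefore also given without it.

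None of the 10 genes passed the threshold for a difference between the miR-187 and WT libraries. Mean log2 levels were lower in miR-187 for 8 genes, among them *Cdk1* and the other 5 genes of mitosis, and higher for *Pcna* and *Mcm2*, while 55.7% of all tested genes were lower. Without miR-187 replicate 2 the mean was lower for 7 of the 10 genes and for 42.9% of the tested genes. Both miR-187 libraries lay below both WT libraries for 6 genes, *Top2a*, *Ccna2*, *Ccnb1*, *Aurkb*, *Plk1* and *Bub1*, and above them for 0. Across all tested genes, 13.2% had groups separated downward in this way and 12.3% upward, and among the tested genes with mean levels in the range of the 10 the downward share was 12%. The 10 genes share 4 libraries and are known to be transcribed together in cycling cells, so these counts are not 10 independent observations.

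**Figure D1:**
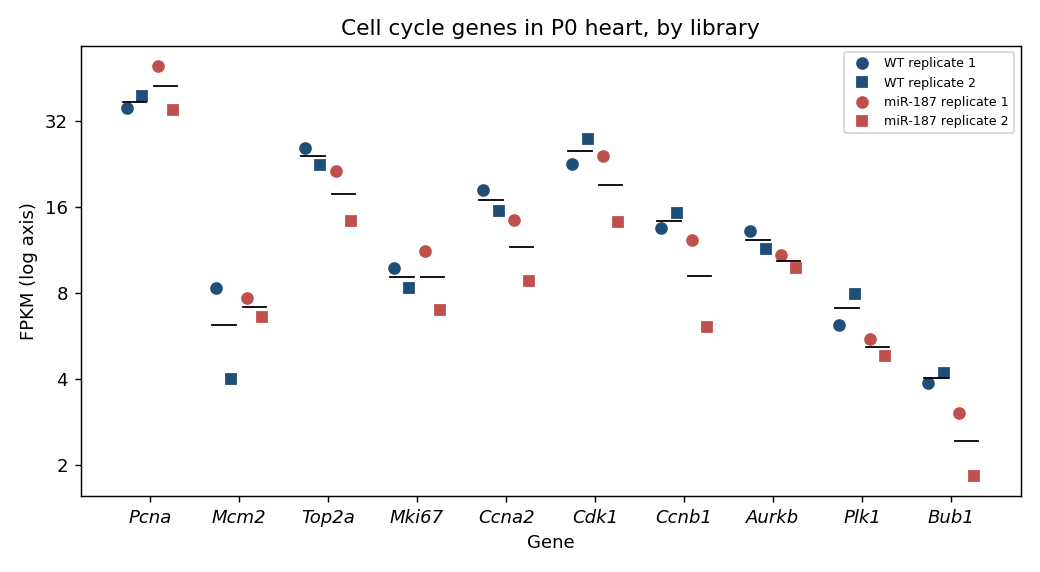
FPKM of each gene on a log axis in the 4 libraries (blue, WT; red, miR-187; circles, replicate 1; squares, replicate 2), with short black lines at the group means. The red square, miR-187 replicate 2, is the lowest point for 9 of the 10 genes, and for *Mcm2* the lowest point is WT replicate 2.

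The genes of replication were examined first. *Pcna* encodes the sliding clamp that holds DNA polymerase on its template (ENSMUSG00000027342.14, chromosome 2, 132249286 to 132253180 in GRCm38.p6). It had 35.5 and 39.1 FPKM in the WT hearts and 49.8 and 35.1 in the miR-187 hearts. Its level was the highest of the 10 genes in every library, and the groups overlapped, with miR-187 replicate 1 above and replicate 2 just below both WT libraries. *Mcm2* encodes a subunit of the helicase that opens DNA at replication origins (ENSMUSG00000002870.8, chromosome 6, 88883474 to 88898780). It had 8.34 and 3.99 FPKM in the WT hearts against 7.67 and 6.58 in the miR-187 hearts. On the log2(FPKM + 1) scale the WT libraries were farther apart than for any other of the genes, by 0.90, and both miR-187 values lay between them.

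Differences were tested on the log2(FPKM + 1) scale with limma across all 14325 genes, where the threshold was a Benjamini-Hochberg adjusted p under 0.05. The log2 difference, miR-187 minus WT, was 0.16 for *Pcna* (95% interval -0.67 to 0.99) and 0.25 for *Mcm2* (95% interval -0.54 to 1.03). Without WT replicate 2 the difference of *Mcm2* was -0.20, and without miR-187 replicate 1 that of *Pcna* was -0.08, so that neither kept its sign.

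*Top2a* and *Mki67* mark cycling cells from S phase to mitosis. *Top2a* encodes the topoisomerase that untangles sister DNA molecules (ENSMUSG00000020914.17, chromosome 11, 98992947 to 99024199). Its levels were 25.8 and 22.4 FPKM in the WT hearts and 21.4 and 14.3 in the miR-187 hearts, and the log2 difference was -0.44 (95% interval -1.25 to 0.37). The groups did not overlap, but the gap between the lower WT and the higher miR-187 library was narrow. Without miR-187 replicate 2 the difference of *Top2a* was -0.16, and without miR-187 replicate 1 it was -0.72. *Mki67* encodes Ki-67, a protein that coats mitotic chromosomes and is the standard label of proliferating cells (ENSMUSG00000031004.8, chromosome 7, 135689784 to 135716450). It had 9.81 and 8.35 FPKM in the WT hearts and 11.3 and 6.95 in the miR-187 hearts. The miR-187 libraries were thus the highest and the lowest of the 4, and the log2 difference was -0.03 (95% interval -0.80 to 0.75). It was 0.0079 after TMM scaling (trimmed mean of M-values), 0.010 with median centring, 0.08 without WT replicate 1 and 0.29 without miR-187 replicate 2, and so had no stable sign.

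The kinase that drives entry into mitosis and its cyclins came next. *Cdk1* encodes that kinase (ENSMUSG00000019942.13, chromosome 10, 69335146 to 69352912) and had 22.7 and 27.6 FPKM in the WT hearts and 24.2 and 14.1 in the miR-187 hearts. MiR-187 replicate 1 lay between the WT libraries and only replicate 2 lay below them. *Ccna2* encodes cyclin A2, the partner of the kinases from S phase into G2 (ENSMUSG00000027715.9, chromosome 3, 36564865 to 36573038), with 18.4 and 15.5 FPKM in the WT hearts and 14.4 and 8.82 in the miR-187 hearts. Its RefSeq span overlaps that of *Exosc9*, and as the use of strand is not stated, reads of the overlap cannot be assigned with certainty. The span of *Top2a* overlaps that of a snoRNA gene, with the same limit. *Ccnb1* encodes cyclin B1, the partner of CDK1 at mitotic entry (ENSMUSG00000041431.16, chromosome 13, 100778739 to 100786486). It had 13.5 and 15.2 FPKM in the WT hearts and 12.3 and 6.06 in the miR-187 hearts.

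*Ccnb1* is given in full, as its difference was the farthest from 0 of the 10 genes on the log2(FPKM + 1) scale with all libraries. This order was not kept with a pseudocount of 0.1, without WT replicate 2 or without miR-187 replicate 2. It averaged 14.4 ± 1.21 FPKM in the WT hearts and 9.18 ± 4.41 FPKM in the miR-187 hearts (SD, n = 2 each). On the log2 scale this was -0.66, with a 95% interval from -1.47 to 0.15, a standard error of 0.39 and a limma adjusted p of 1.00. MiR-187 replicate 1 had 2.03 times the FPKM of replicate 2, a within-group gap of 0.91 on the log2 scale that was larger than the difference between groups. The difference was -0.21 without miR-187 replicate 2 and -1.12 without miR-187 replicate 1. For *Ccna2* and *Cdk1* the log2 differences were -0.54 (95% interval -1.34 to 0.26) and -0.41 (95% interval -1.24 to 0.41). These became -0.21 and -0.05 without miR-187 replicate 2, and -0.86 and -0.78 without miR-187 replicate 1.

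The remaining genes encode kinases of chromosome segregation. *Aurkb* encodes Aurora B, the kinase of the chromosomal passenger complex that corrects spindle attachments (ENSMUSG00000020897.12, chromosome 11, 69045624 to 69051664). It had 13.2 and 11.4 FPKM in the WT hearts and 10.9 and 9.81 in the miR-187 hearts. *Plk1* encodes Polo-like kinase 1, which acts from centrosome maturation to cytokinesis (ENSMUSG00000030867.7, chromosome 7, 122159435 to 122169884). It had 6.19 and 7.93 FPKM in the WT hearts and 5.51 and 4.83 in the miR-187 hearts. *Bub1* encodes a kinase of the spindle checkpoint at the kinetochore (ENSMUSG00000027379.13, chromosome 2, 127800197 to 127831859), with 3.87 and 4.20 FPKM in the WT hearts and 3.03 and 1.83 in the miR-187 hearts.

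The groups did not overlap for any of these kinases. The log2 differences were -0.23 for *Aurkb* (95% interval -0.99 to 0.54), -0.38 for *Plk1* (95% interval -1.11 to 0.35) and -0.57 for *Bub1* (95% interval -1.30 to 0.15). *Aurkb* and *Plk1* were the genes of mitosis whose miR-187 libraries lay closest together, with gaps of 0.14 and 0.16 on the log2 scale. Without miR-187 replicate 2 their differences were -0.16 and -0.30, and that of *Bub1* was -0.32. Leaving out a WT library also moved the values, that of *Plk1* to -0.22 without replicate 2 and that of *Aurkb* to -0.13 without replicate 1.

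**Figure D2:**
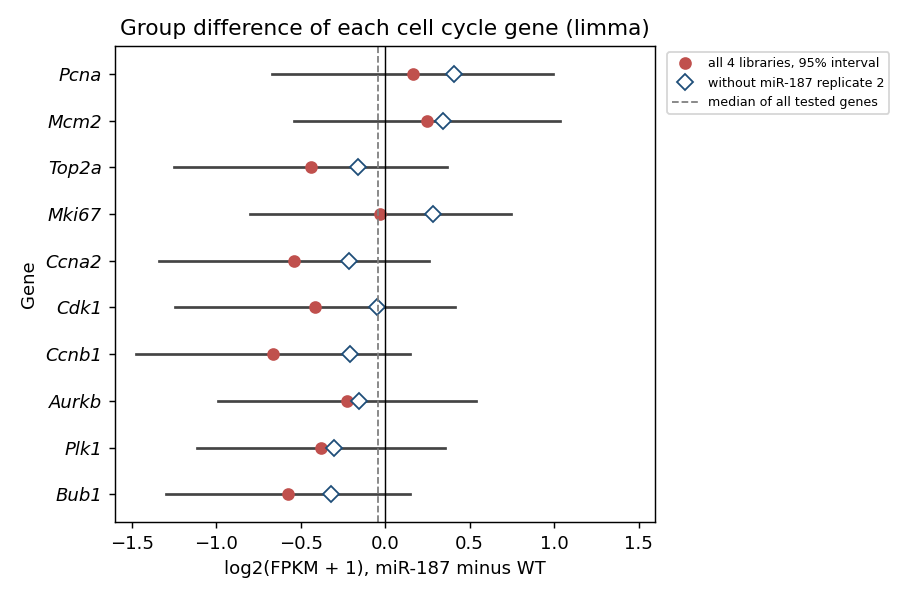
Difference of each gene on the log2(FPKM + 1) scale, miR-187 minus WT, with its 95% interval from limma (red points, 2 libraries per group). Every interval spans 0. Open diamonds give the difference without miR-187 replicate 2, and they lie to the right of the red points for all 10 genes, from -0.32 for *Bub1* to 0.41 for *Pcna*.

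The tests can be summarised over the 10 genes. Limma called 0 of them at an adjusted p under 0.05, against 0.00698% of all tested genes called lower and 0% called higher. Their unadjusted p ranged from 0.105 to 0.943 and 0 were under 0.05, against 3.12% of all genes. The median difference of the genes was -0.40 on the log2 scale, and that of all tested genes was -0.04. Without miR-187 replicate 2 the median of the genes was -0.16 and that of all tested genes 0.06. The median standard error of single genes was 0.38, which does not measure the spread of the median difference over the 10. The intervals include lower levels in miR-187 by more than 1 log2 unit for 6 genes as well as equal levels for all. An exact permutation test of 2 against 2 libraries cannot give a p below 0.333 and was not used.

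The libraries also differed within the groups. MiR-187 replicate 2 was the lowest of the 4 libraries for 9 of the 10 genes, against 39.1% of all tested genes and 38.6% of those with levels in the range of the 10, and it was below miR-187 replicate 1 for all 10, against 65.1%. Relative to the mean of the 4 libraries, the genes had a median deviation of -0.41 in miR-187 replicate 2 on the log2 scale. The median deviation of all tested genes there was -0.12. In the other libraries the median deviation of the genes was above 0, at 0.23 and 0.14 in the WT replicates, where all tested genes had -0.01 and 0.02, and at 0.09 in the first miR-187 replicate, where all tested genes had 0.08. The gap between the miR-187 libraries exceeded the difference between groups for 6 genes, and it was wider than the gap between the WT libraries for 7. For these counts the share over all tested genes was not computed, so they are not read as particular to the 10.

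**Figure D3:**
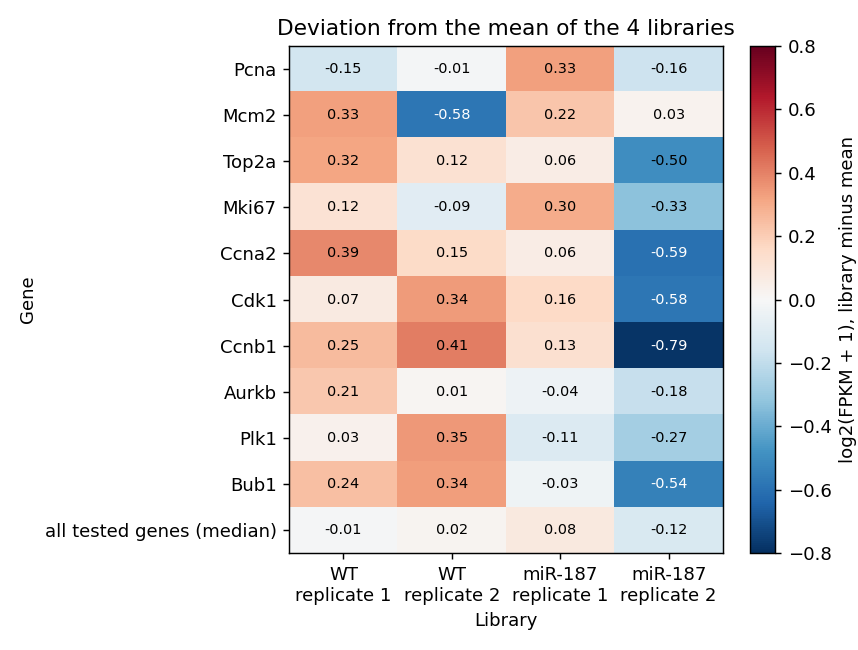
Deviation of each library from the mean of the 4 libraries on the log2(FPKM + 1) scale (red, above; blue, below), by gene, with the median over all 14325 tested genes in the bottom row. The right column, miR-187 replicate 2, holds the values farthest below the mean, down to -0.79 for *Ccnb1*, while *Mcm2* has its lowest value, -0.58, in WT replicate 2.

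MiR-187 replicate 1 was also set against WT on its own. It lay below both WT libraries for 6 genes, as it must for the genes whose groups do not overlap, above both for *Pcna* and *Mki67*, and between them for *Cdk1* and *Mcm2*. With this library as the only one of its group, 24.0% of all tested genes lay below both WT libraries. The 6 genes were not far below, from 0.06 on the log2 scale for *Top2a* and *Aurkb* at the narrowest to 0.27 for *Bub1* at the widest, counted from the lower WT library.

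The level of a gene among all genes does not depend on how a library is scaled. *Ccnb1* stood at percentiles 81.2 and 79.7 of the tested genes in WT and at 77.6 and 64.7 in miR-187. *Bub1* was near the middle of all genes in WT, with 50.9 in replicate 2, and stood at 39.5 and 29.7 in miR-187. *Pcna* stood between 90.2 and 93.0 in the 4 libraries, with the highest place in miR-187 replicate 1. *Aurkb* stood at 75.2 in miR-187 replicate 1, with WT replicate 2 and miR-187 replicate 2 within 1 percentile of it, and was higher, at 80.9, in WT replicate 1 only. By percentile, 4 genes lay lower in both miR-187 libraries than in both WT libraries, *Cdk1*, *Ccnb1*, *Plk1* and *Bub1*, against 13.7% of all tested genes. *Cdk1* was among them by less than 1 percentile, as WT replicate 2 stood at 87.2 and miR-187 replicate 1 at 87.1. Without miR-187 replicate 2 the count was 4 genes against 28.9% of all, and without miR-187 replicate 1 it was 8 against 35.2%. For *Top2a*, *Ccna2* and *Aurkb*, whose FPKM did not overlap between the groups, the percentiles did: those of *Top2a* were 88.8 and 84.9 in WT and 85.6 and 80.8 in miR-187.

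A ratio within a library is also free of scaling. *Pcna* was taken as the reference after the values had been seen, so the ratios are a description without a test. As a percentage of *Pcna*, *Ccnb1* had 38.0% and 38.9% in WT and 24.7% and 17.3% in miR-187. *Bub1* had 10.9% and 10.7% in WT and 6.10% and 5.21% in miR-187, and *Cdk1*, whose own levels overlapped, had 63.8% and 70.6% against 48.7% and 40.2%. For these genes both miR-187 libraries lay below both WT libraries. The reference itself was highest in miR-187 replicate 1, at 49.8 FPKM against 35.1 to 39.1 in the other libraries. This lowers every ratio of that library. *Cdk1* had 24.2 FPKM there, between its WT levels of 22.7 and 27.6. The WT ratios were farther apart for *Top2a*, at 72.7% and 57.4%, *Ccna2*, at 51.8% and 39.5%, and *Aurkb*, at 37.2% and 29.1%. Of the 9 genes set against *Pcna*, 7 had a lower ratio in both miR-187 libraries than in both WT libraries, with *Mki67* and *Mcm2* as the exceptions. The same was found for 26.8% of all tested genes. Without miR-187 replicate 2 there were again 7 genes, against 56.9% of all.

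**Figure D4:**
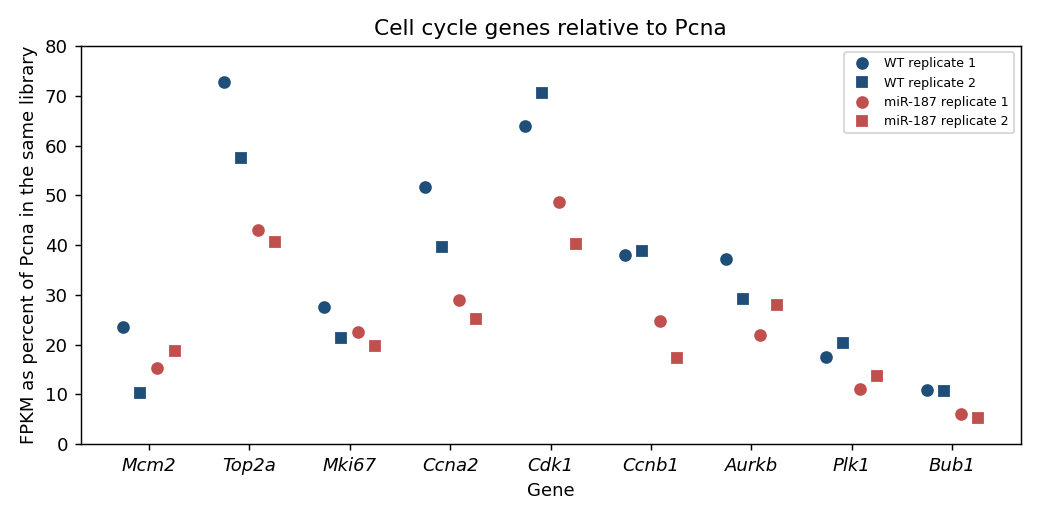
FPKM of each gene as a percentage of *Pcna* in the same library (blue, WT; red, miR-187; circles, replicate 1; squares, replicate 2), from 0 upward. Red points lie below blue points for *Top2a*, *Ccna2*, *Cdk1*, *Ccnb1*, *Aurkb*, *Plk1* and *Bub1*, by a narrow margin for *Aurkb* (27.9% against 29.1%), and mix with them for *Mcm2* and *Mki67*.

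The genes of mitosis were then averaged and set against those of replication, again after the values had been seen. The mean log2 FPKM of *Cdk1*, *Ccnb1*, *Ccna2*, *Aurkb*, *Plk1* and *Bub1* minus that of *Pcna* and *Mcm2* was -0.64 and -0.10 in WT replicates 1 and 2. It was -1.03 and -1.26 in miR-187 replicates 1 and 2. Both miR-187 libraries lay below both WT libraries, and the group means were -0.37 ± 0.38 in WT and -1.14 ± 0.17 in miR-187 (SD, n = 2 each), a difference of -0.77. The difference was -0.50 without WT replicate 2, the library with the low *Mcm2* value, and -0.65 without miR-187 replicate 2. It was -0.54 with *Top2a* counted among the replication genes and -0.50 with *Mki67* in their place. Against *Pcna* alone it was -0.70, with WT values of -1.69 and -1.75 and miR-187 values of -2.37 and -2.47. Since both sets of genes and the reference were picked with these values in view, the gap between the groups is no measure of chance. *Ccna2*, whose cyclin acts from S phase onward, was counted with mitosis throughout, and no alternative moved it.

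Within mitotic entry, *Ccnb1* was 59.5% and 55.1% of *Cdk1* in WT and 50.8% and 42.9% in miR-187. The cyclin was thus lower relative to its kinase in both miR-187 libraries, but the margin between the groups was smaller than the gap between the replicates of either group.

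The genes were ordered by their level. Mean FPKM over the 4 libraries ran from 39.9 for *Pcna* through 22.2 for *Cdk1*, 21.0 for *Top2a*, 14.3 for *Ccna2*, 11.8 for *Ccnb1*, 11.3 for *Aurkb*, 9.09 for *Mki67*, 6.64 for *Mcm2* and 6.12 for *Plk1* to 3.23 for *Bub1*. Only *Pcna* at the top and *Bub1* at the bottom had ranges that did not overlap with that of their neighbour. *Cdk1* and *Top2a* did not differ beyond their spread, as each was the higher in 2 of 4 libraries, and *Ccnb1* exceeded *Aurkb* in 3 of 4. Near-identical copies can take reads from a gene, and RefSeq lists *Pcna-ps1* and *Pcna-ps2* for *Pcna* and *Ccnb1-ps* for *Ccnb1*, so the levels of these genes are less certain.

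Genes with a pattern like that of the 10 were sought among the 6183 other genes that averaged 5 FPKM or more. The measure was the root mean square difference, over the 4 libraries, between a gene's log2 deviations and the mean deviations of the 10 genes. The nearest were ENSMUSG00000044502.16, at 0.025, and ENSMUSG00000016018.4, at 0.027, and neither ID is paired with a name in the table. The first had 26.7 FPKM in WT replicate 1, close to it in WT replicate 2, and then 25.5 and 18.5 FPKM in the miR-187 hearts. Its low value in miR-187 replicate 2 follows from the choice by likeness. The distance of the 10 genes themselves from their own mean ran from 0.090 for *Top2a* to 0.41 for *Mcm2*. The nearest genes were picked for the smallest distances among 6183, so their distances cannot be compared with those of the 10.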

How the data were processed

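The authors deposited 1 table of FPKM values for 4 heart libraries. Per the labels, the processing notes name mm10, HISAT2, StringTie and DESeq2, without versions, and the annotation release and use of strand are not given in the sources used here. FPKM divides by gene length and mapped total, so abundant transcripts can lower all other values of a library, and an FPKM without counts gives no depth or counting interval. All further values were computed here. Genes that averaged 1 FPKM or more (14325) were tested on log2(FPKM + 1), a scale that understates changes of low genes, with limma 3.58.1 in R 4.3.3 (lmFit, eBayes with trend, two-sided, Benjamini-Hochberg over all tested genes, groups from the labels). The procedure was run on simulated data with changes larger than any difference of the 10 genes with all 4 libraries. That run cannot show whether changes of their size would be found. Tables and figures were made with pandas 2.3.3 and matplotlib 3.10.9 in Python 3.11.15. Positions came from the RefSeq gene table of GRCm38.p6, the assembly of mm10, in which all 10 genes matched by symbol.

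The 10 genes and the lists were chosen with earlier results of these data known. The rule for named genes took all 10, the genes nearest to their mean profile, and genes from 6 pathway and 7 marker lists. The table pairs no names with IDs and the RefSeq table holds 0 Ensembl IDs, so those lists, the miR-187 transcript and gene sequences were not analysed here, and of the 5 nearest genes 2 are given. Alternatives were another pseudocount, other filters, TMM factors (30% and 5% trimmed) and median centring, a fit without the eBayes trend, a replicate block and leaving out single libraries. Ratios between the genes, with their alternatives, were chosen after seeing the data.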

Additional observations from a re-analysis of the deposited data

How the results depend on the processing

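None of the 10 genes had an adjusted p under 0.05 (limma) in any of the 11 alternatives that tested it, where it ranged from 0.617 to 1; a minimum mean of 5 FPKM left 9 of the genes, without *Bub1*. Of 109 differences recomputed for single genes, 103 kept their sign. The exceptions were *Mki67*, with 0.0079 under TMM factors and 0.010 under median centring, and 3 genes when a library was left out, where *Mki67* ranged from -0.34 to 0.29, *Pcna* from -0.082 (without miR-187 replicate 1) to 0.41 and *Mcm2* from -0.20 (without WT replicate 2) to 0.70. With a pseudocount of 0.1 the median difference of the genes was -0.43. The count of genes lower by percentile, 4 with all libraries, was 4 to 8 when a miR-187 library was left out. Leaving out a library leaves 1 in its group, which is then assumed to vary like the others. The counts over all genes, 0 higher and 1 lower, became 0 lower with a minimum mean of 5 FPKM (6192 genes tested) and 0 lower without a filter (54560 genes tested), and the cause was not tested. Without 1 library they ranged from 10 to 60 higher and from 14 to 55 lower, and in these fits limma estimated infinite prior degrees of freedom, which leaves the spread of the single gene out of its test. The replicate block, with the same infinite prior, gave 33 higher and 18 lower genes and called 0 of the 10. Deviations of same-numbered libraries correlated with r = -0.0675 across genes, and the labels name no shared litter or batch, so no pairing was assumed. The alternatives for the pathway lists were not run, because their genes could not be matched. Depth limits cannot be given from FPKM.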
